A study of Mus musculus with 12 samples.

Results

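Class I and class II molecules of the major histocompatibility complex (MHC) carry peptides to the cell surface, where T cells read them. Class I heavy chains pair with the light chain B2m and are made by nearly every nucleated cell. Their peptides come from proteins cut by the proteasome and are pumped into the endoplasmic reticulum by the Tap transporter. Class II chains are made chiefly by dendritic cells, macrophages and B cells under the transactivator Ciita. They travel with the invariant chain Cd74 and receive peptides in endosomes with the help of H2-DM. In the liver, Kupffer cells and sinusoidal endothelial cells are known to present antigen, and hepatocytes carry class I and little class II.

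The members described here were all genes of the table whose symbol begins with H2-, apart from 3 pseudogenes named with -ps, plus B2m, Cd74 and Ciita. They numbered 44 of 47069 genes. Ciita lies on mouse chromosome 16 and Cd74 on chromosome 18. Among them, 30 belonged to class I (B2m included) and 13 to class II and its partners. The remaining 1, H2-Ke6, bears the H2- name but encodes an enzyme and presents no antigen. In the GENCODE M21 annotation, the members H2-Q5, H2-T10 and H2-Bl are polymorphic pseudogenes. There H2-K2, H2-Q3, H2-Pa and H2-Pb are pseudogenes as well.

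The libraries came from wild type (WT) mice and from Cdk1 Liv-/- mice, in which Cdk1 flox/flox alleles were recombined by Cre under the Albumin promoter, which is active in hepatocytes. All mice were at postnatal day 14. Isolated hepatocytes and whole liver were each represented by 3 libraries a genotype, which made 4 groups and 12 libraries of polyadenylated RNA. The strain of the mice was not given in the sources used here. Values are FPKM, fragments per kilobase of transcript scaled to the mapped reads of a library, so levels of different genes are given per length. The size of the steps between low values put the depth at 34.9 to 49.9 M reads a library.

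Cdk1, the deleted gene, was lower in the libraries labelled Cdk1 Liv-/- in both compartments. In hepatocytes it stood at 27.9, 20.4 and 28.2 FPKM in WT and at 9.68, 11.8 and 6.87 in Cdk1 Liv-/-. In whole liver it stood at 25.3, 22.7 and 21.5 FPKM in WT and at 11.7, 12.1 and 14.2 in Cdk1 Liv-/-. The groups did not overlap in either compartment. Hepatocyte markers were abundant in all libraries: 8 of them, led by Alb, summed to 81407, 89981 and 84937 FPKM in WT hepatocytes and to 57152, 58162 and 54360 FPKM in Cdk1 Liv-/- hepatocytes. In whole liver their sums were 84813, 82954 and 85315 FPKM in WT and 64966, 57183 and 63154 FPKM in Cdk1 Liv-/-. Markers of other liver cells were present in the isolated hepatocytes as well and are given beside the results.

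Several libraries stood apart from the rest of their groups. Liver Cdk1 Liv-/- replicate 1 held 74.2 FPKM of Tap1, a subunit of the peptide transporter, against 19.0 and 16.8 in replicates 2 and 3. Liver Cdk1 Liv-/- replicate 3 held 158 FPKM of Xist, the RNA of the inactive X chromosome, and listed Ddx3y, Eif2s3y, Uty and Kdm5d of the Y chromosome at 0. The other 11 libraries held at most 0.14 FPKM of Xist. The study's methods state that male mice were used. Hepatocyte WT replicate 3 had a summed level of 689 FPKM for 11 Kupffer cell and macrophage markers, against 374 and 203 in WT replicates 1 and 2 and 539, 593 and 600.1 in the WT livers. Its 7 sinusoidal endothelial markers summed to 223 FPKM, also above the WT livers, which held 116 to 160.2.

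B2m was the most abundant member, with means over 3 libraries between 1003 FPKM in WT hepatocytes and 1566 FPKM in Cdk1 Liv-/- liver. The class I heavy chains H2-Q10, H2-K1, H2-D1 and H2-T23 followed, with means over the 12 libraries of 516, 381, 245 and 191 FPKM. Cd74 was the most abundant member of class II, with a mean of 59.0 FPKM. H2-Aa and H2-Ab1, which encode the chains of the class II molecule I-A, and H2-Eb1, which encodes 1 chain of I-E, had means of 28.4, 18.8 and 17.3 FPKM. At a mean of at least 0.1 FPKM over the 12 libraries, 28 of the 44 members entered the tests. Of the other 16, 7 were at 0 in every library and none exceeded 0.35 FPKM in any. These were mostly H2-M genes, together with H2-T3, H2-Eb2, H2-Q3, H2-Pa and H2-Pb.

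All members with the H2- name lie on chromosome 17 (GRCm38, the assembly called mm10), between base 33974659, the start of H2-K2, and base 37483552, the end of H2-M2. B2m lies on chromosome 2. Many class I genes are near copies, so that a read can fit more than 1 of them. Among 75-base windows, the read length, 21.2% of those of H2-Q5, 17.9% of H2-Q6 and 17.0% of H2-Q7 occurred in transcripts of other genes as well. For H2-T22 the share was 18.5% and for H2-T10 16.0%, each chiefly with the other, as were the shares of H2-DMb2, 16.1%, and H2-DMb1, 15.8%. For H2-K1 it was 3.1%, and for B2m, Cd74, Ciita, H2-Aa, H2-Ab1 and H2-Eb1 it was 0. How reads were split among the H2-Q copies, between H2-T22 and H2-T10, and between H2-DMb1 and H2-DMb2, is therefore uncertain. H2-Ke6 shared 65.5% of its windows with Gm20427, which overlaps it.

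The promoters of the members were searched for elements from which class I and class II genes are known to be switched on. RefSeq windows from 250 bases before to 50 bases after the transcription start (GRCm38.p6) were found for 32 of the 44 members. Each was searched on both strands for TGATTGG (Y box), AACNGATGA (X box), TTTCANTT (part of the interferon-stimulated response element) and GGGGATTCC (kappaB). The motifs were chosen after these sequences had been seen. Of 32851 promoters of the same length, 7.82% held the Y box, 0.65% the X box, 6.58% the interferon element and 0.25% the kappaB letters. Of 8 class II members with a window, 7 held the Y box, 3 the X box and none the interferon element. Of 23 class I members, 15 held the Y box, 11 the interferon element, 4 the kappaB letters and none the X box. H2-DMa, H2-Q2, H2-M2, H2-M5, H2-M10.2 and H2-Ke6 held none of these motifs. A match describes letters and does not show a bound site. The sequences below run from 10 bases before the outermost match to 10 bases after it, on the strand of the gene, with matches in capitals. Of the class II members higher in Cdk1 Liv-/- liver, H2-DMa held no motif and H2-Oa the Y box alone, and neither is shown. For Cd74 and H2-Ab1, also higher there, no window was searched. H2-Aa, H2-Eb1 and H2-DMb1, also higher there, are shown for class II. They come from chr17:34287857-34287883, minus strand, chr17:34305768-34305822, plus strand, and chr17:34153089-34153144, plus strand.
H2-Aa: gagaattttcTGATTGGttctggcgag
H2-Eb1: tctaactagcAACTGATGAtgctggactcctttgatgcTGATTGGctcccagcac
H2-DMb1: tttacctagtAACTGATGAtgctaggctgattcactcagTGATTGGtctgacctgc

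The X box and the Y box follow each other in the same order in H2-Eb1 and H2-DMb1. Among class I, H2-K1 and H2-Q7 are shown because both were higher in Cdk1 Liv-/- hepatocytes, and H2-Q10 because it did not pass the test there. The windows are chr17:34000323-34000468, minus strand, chr17:35439012-35439155, plus strand, and chr17:35469924-35469951, plus strand. H2-T22 and B2m, on chr17:36042816-36042943, minus strand, and chr2:122147540-122147567, plus strand, are shown for comparison, since both were higher in Cdk1 Liv-/- hepatocytes as well.
H2-K1: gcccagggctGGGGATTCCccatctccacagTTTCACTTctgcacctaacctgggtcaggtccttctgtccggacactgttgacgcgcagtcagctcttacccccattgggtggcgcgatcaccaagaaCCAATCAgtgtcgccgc
H2-Q7: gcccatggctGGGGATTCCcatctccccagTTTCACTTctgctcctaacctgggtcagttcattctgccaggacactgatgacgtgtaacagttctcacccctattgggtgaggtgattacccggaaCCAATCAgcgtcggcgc
H2-Q10: atctccccagTTTCACTTctgctcctaa
H2-T22: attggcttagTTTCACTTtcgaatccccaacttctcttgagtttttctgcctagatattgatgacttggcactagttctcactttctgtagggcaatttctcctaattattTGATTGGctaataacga
B2m: aagaacatgaAACTGAAAatgggaaagt

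H2-K1 and H2-Q7 each held the kappaB letters, the interferon element and, on the opposite strand, the Y box, in this order. H2-Q10 held the interferon element alone. B2m also held the interferon element alone, on the opposite strand, and H2-T22 held it with the Y box. Of the 8 class I members higher in hepatocytes 6 had a window, and among these H2-K1, H2-D1, H2-Q6 and H2-Q7 held the kappaB letters and H2-T22 and B2m did not.

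In isolated hepatocytes the genotype comparison asked which antigen presentation genes change in the cells that lose Cdk1. Part of the class I genes were higher in Cdk1 Liv-/- hepatocytes, led by H2-Q7, H2-Q5 and H2-Q6, and no class II gene passed the test. With limma on log2(FPKM + 0.5), 8 of 28 tested members were higher and 2 were lower at an adjusted p of at most 0.1. Over all 17385 tested genes, 12.1% were higher and 6.61% lower by that rule. All 8 higher members belonged to class I, of which 17 were tested. The median log2 fold change was 0.43 over the tested class I members, 0.07 over 10 members of class II and its partners, and 0.05 over all tested genes. Dividing by median-ratio size factors moved the median of all genes by -0.05, and 7 members were then higher and 2 lower, beside 1709 genes higher and 1414 lower in place of 2108 and 1149. Leaving out 1 library at a time gave 5 to 8 higher members, with 5 without hepatocyte WT replicate 2 and 5 without hepatocyte Cdk1 Liv-/- replicate 3, beside 7.33% and 8.95% of all tested genes.

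H2-Q7 encodes a non-classical class I chain that belongs to the Qa-2 antigens. It stood at 20.4, 15.7 and 12.3 FPKM in WT hepatocytes and at 56.3, 51.1 and 41.7 in Cdk1 Liv-/- hepatocytes. Every Cdk1 Liv-/- library lay above every WT library, and the mean rose 3.07-fold, from 16.2 ± 4.07 to 49.7 ± 7.40 FPKM (SD, n = 3; limma log2 fold change 1.61 ± 0.20 SE, adjusted p = 0.00704). H2-Q6, a near copy of it, stood at 9.49, 7.29 and 5.44 FPKM in WT and at 20.96, 22.6 and 14.3 in Cdk1 Liv-/-. H2-Q5, annotated in GENCODE M21 as a polymorphic pseudogene, stood at 8.02, 6.67 and 4.87 FPKM in WT and at 18.2, 19.2 and 14.2 in Cdk1 Liv-/-. The groups did not overlap for either gene, and the log2 fold changes were 1.33 ± 0.25 and 1.35 ± 0.20 (SE, limma adjusted p = 0.0244 and 0.0125). These 3 were the members that also passed with a log2 fold change of at least 1, a rule met by 4.20% of all tested genes upward and 2.17% downward.

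The classical class I chains, which present peptides to CD8 T cells, rose less. H2-K1 stood at 322, 254 and 232 FPKM in WT and at 401, 361 and 407 in Cdk1 Liv-/- hepatocytes. H2-D1 stood at 193, 137 and 165 FPKM in WT and at 237, 213 and 243 in Cdk1 Liv-/-. Neither gene's groups overlapped. The log2 fold changes were 0.54 ± 0.14 and 0.50 ± 0.14 (SE, limma adjusted p = 0.0560 and 0.0703). B2m, the light chain without which class I molecules do not reach the surface stably, stood at 1062, 994 and 954 FPKM in WT. In Cdk1 Liv-/- it stood at 1306, 1356 and 1386 FPKM, above every WT library (limma log2 fold change 0.43 ± 0.10 SE, adjusted p = 0.0409). These calls were close to the threshold and depended on single libraries. H2-K1 missed it without hepatocyte WT replicate 2 or 3 or Cdk1 Liv-/- replicate 1 or 3 (limma adjusted p = 0.138, 0.124, 0.134 and 0.150). H2-D1 missed it without WT replicate 2 or 3 or Cdk1 Liv-/- replicate 1, 2 or 3 (limma adjusted p = 0.129, 0.148, 0.158, 0.107 and 0.180). B2m missed it without WT replicate 1, 2 or 3 or Cdk1 Liv-/- replicate 3 (limma adjusted p = 0.104, 0.120, 0.109 and 0.113), and with size factors (0.103). Over 17 alternatives the limma adjusted p ranged from 0.0391 to 0.181 for H2-K1, from 0.0546 to 0.185 for H2-D1 and from 0.0128 to 0.232 for B2m.

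Of the H2-T genes, H2-T22, whose product is bound by some gamma delta T cells, rose from 44.5, 41.0 and 39.1 FPKM in WT to 63.7, 63.0 and 58.1 in Cdk1 Liv-/- hepatocytes. Its log2 fold change was 0.56 ± 0.08 (SE, limma adjusted p = 0.0103), and every Cdk1 Liv-/- library was above every WT library. H2-T10, close in sequence to H2-T22 and annotated as a polymorphic pseudogene, rose from a mean of 0.79 to 1.89 FPKM (limma log2 fold change 0.89 ± 0.16 SE, adjusted p = 0.0208). H2-T23 moved the other way. It encodes Qa-1, the ligand of CD94/NKG2 receptors on natural killer cells. It stood at 175, 164 and 174 FPKM in WT and fell to 135, 132 and 137 in Cdk1 Liv-/- (limma log2 fold change -0.34 ± 0.06 SE, adjusted p = 0.0252). The replicates of each group lay closer together than the groups did. The call of H2-T23 was lost under 1 of 17 alternatives, with limma adjusted p between 0.0179 and 0.104.

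H2-Q10, a secreted class I molecule made mainly by the liver, varied within Cdk1 Liv-/- hepatocytes. It stood at 482, 488 and 429 FPKM in WT and at 402, 676 and 453 in Cdk1 Liv-/-, so the groups overlapped (limma log2 fold change 0.10 ± 0.20 SE, adjusted p = 0.790), and without Cdk1 Liv-/- replicate 2 the log2 fold change was -0.13. H2-Q4 stood at 24.8, 19.7 and 21.95 FPKM in WT and at 29.3, 29.1 and 24.4 in Cdk1 Liv-/- (limma adjusted p = 0.151). H2-Q1 stood at 12.8, 12.8 and 8.89 FPKM in WT and at 11.6, 18.7 and 11.6 in Cdk1 Liv-/- (limma adjusted p = 0.511). For these 2 genes as well the groups overlapped. H2-Ke6 fell from 47.6, 47.6 and 49.5 FPKM to 37.2, 30.9 and 32.0 (limma log2 fold change -0.53 ± 0.09 SE, adjusted p = 0.0178), with no overlap. Among class I members of low level, H2-K2, H2-M3, H2-Q2, H2-T24 and H2-Bl did not pass in hepatocytes, with log2 fold changes between -0.68 and 0.64 (limma adjusted p between 0.109 and 0.840). Without hepatocyte WT replicate 2 H2-M3 was lower, and without hepatocyte Cdk1 Liv-/- replicate 2 H2-Bl was higher.

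**Figure D1:**
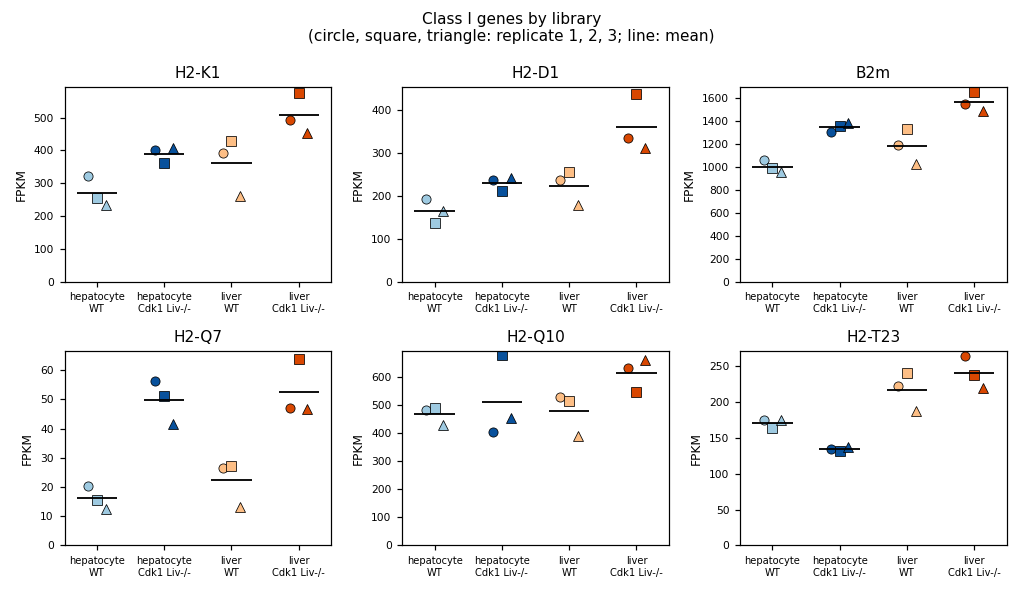
FPKM (vertical axes, from 0) of H2-K1, H2-D1, B2m, H2-Q7, H2-Q10 and H2-T23 in each of the 12 libraries, with replicates 1, 2 and 3 as circles, squares and triangles and group means of 3 libraries as lines. H2-Q7 in Cdk1 Liv-/- hepatocytes lies between 41.7 and 56.3 FPKM, above 20.4 FPKM, the highest WT hepatocyte library, while H2-T23 in Cdk1 Liv-/- hepatocytes lies below every other group.

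The class II chains of hepatocytes were low and overlapped between genotypes. H2-Aa stood at 10.2, 5.75 and 12.3 FPKM in WT and at 11.5, 8.73 and 10.1 in Cdk1 Liv-/- hepatocytes. H2-Ab1 stood at 6.03, 3.05 and 7.51 FPKM in WT and at 8.31, 5.63 and 5.85 in Cdk1 Liv-/-. H2-Eb1 stood at 6.09, 3.29 and 6.53 FPKM in WT and at 7.07, 5.12 and 5.61 in Cdk1 Liv-/-. WT replicate 2 was the lowest library for each of the 3 genes. Their log2 fold changes lay between 0.15 and 0.30 (limma adjusted p between 0.592 and 0.758), and without WT replicate 2 all 3 turned negative, -0.15 for H2-Aa, -0.05 for H2-Ab1 and -0.09 for H2-Eb1. Cd74, which accompanies the chains, did not pass either. It stood at 18.1, 9.65 and 22.03 FPKM in WT and at 29.4, 26.7 and 26.1 in Cdk1 Liv-/-, without overlap, and the spread in WT was wide (limma log2 fold change 0.78 ± 0.29 SE, adjusted p = 0.139). Without hepatocyte WT replicate 3 the log2 fold change of Cd74 was 1.02 and its limma adjusted p was 0.0929, in a range of 0.0907 to 0.278 over 17 alternatives. Ciita, the transactivator of class II genes, stood at 0.14, 0.08 and 0.21 FPKM in WT and at 0.14, 0.16 and 0.12 in Cdk1 Liv-/- hepatocytes. Its log2 fold change was 0.00 and changed sign when every library was scaled to the same sum. H2-DMa and H2-DMb1, which load peptides onto class II, had means between 1.503 and 1.73 FPKM in both genotypes. With limma, 0 of the 10 class II members passed in either direction, and 1 was higher and 0 lower at an unadjusted p under 0.05.

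Markers of other liver cells are given beside these values, with 12.1% of all tested genes higher and 6.61% lower in hepatocytes. The 11 Kupffer cell and macrophage markers summed to 374, 203 and 689 FPKM in WT hepatocytes and to 228, 169.8 and 149 FPKM in Cdk1 Liv-/- hepatocytes. Cd5l was the most abundant of them. By limma 0 of 11 were higher and 1, Adgre1, was lower. At an unadjusted p under 0.05 these counts were 0 and 7, beside 3027 and 1913 of all 17385 tested genes. Without hepatocyte WT replicate 2, the WT library lowest in these markers, 10 were lower, and the call of Adgre1 was lost when any 1 of the other 5 libraries was left out. With size factors 5 were lower. The 7 sinusoidal endothelial markers, led by Stab1, summed to 118, 77.8 and 223 FPKM in WT and to 56.9, 36.7 and 43.6 FPKM in Cdk1 Liv-/-, and 6 were lower. That count was 2 without WT replicate 1 or Cdk1 Liv-/- replicate 2 or 3, and 3 without Cdk1 Liv-/- replicate 1. The 8 dendritic cell markers, led by Zbtb46, summed to between 2.85 and 6.98 FPKM in WT and to between 2.94 and 3.78 FPKM in Cdk1 Liv-/-, with 1 lower by limma, Zbtb46, and at an unadjusted p under 0.05 0 higher and 1 lower. That call was lost without WT replicate 1 or Cdk1 Liv-/- replicate 3. The 7 B cell markers, led by Ighm, summed to 7.99, 6.24 and 16.5 FPKM in WT and to 5.54, 3.70 and 3.70 FPKM in Cdk1 Liv-/-, with 1 higher, Cr2, and 3 lower, Cd79a, Cd79b and Ighm. Without WT replicate 2, 4 B cell markers were lower, without WT replicate 3, 2 were, and leaving out any 1 of the other 4 libraries lost all 3 calls.

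The other marker lists had calls in both directions in hepatocytes. The 9 T and NK cell markers, led by Gzma, summed to 4.56, 3.00 and 5.58 FPKM in WT and to 1.58, 1.03 and 1.32 FPKM in Cdk1 Liv-/-, and 5 were lower, with 3 to 5 lower on leaving out 1 library. The 6 monocyte markers, led by Lyz2, summed to 38.7, 25.3 and 71.6 FPKM in WT and to 30.3, 25.5 and 28.3 FPKM in Cdk1 Liv-/-, with 1 higher, Ccr2. The 7 neutrophil markers, led by S100a9, summed to 13.6, 11.2 and 46.9 FPKM in WT and to 19.0, 8.78 and 17.7 FPKM in Cdk1 Liv-/-. By limma 0 of them passed, and 0 had an unadjusted p under 0.05. WT replicate 3 had the highest sum of the WT hepatocytes in each of these lists. The 7 stellate cell and fibroblast markers, led by Col3a1, summed to 184, 112 and 369 FPKM in WT and to 111, 109.7 and 94.7 FPKM in Cdk1 Liv-/-, with 1 lower, Reln. The 7 erythroid markers, led by Hbb-bs, summed to 146, 107 and 581 FPKM in WT and to 72.2, 99.6 and 24.4 FPKM in Cdk1 Liv-/-, with 1 lower, Alas2. The call of Reln was lost when any 1 library was left out except WT replicate 2, without which 4 stellate cell markers were lower, and that of Alas2 when any 1 was left out except Cdk1 Liv-/- replicate 2. The 5 cholangiocyte markers, led by Spp1, went the other way, with 19.6, 14.6 and 30.1 FPKM in WT and 66.8, 124 and 100.1 FPKM in Cdk1 Liv-/-, and 4 were higher. Of the 8 hepatocyte markers, Cps1 and Hnf4a were higher and Apoa1 and Ttr lower. No marker of any list was at 0 in every library. In RNA of mixed cells, fewer cells of a type and less RNA per cell cannot be told apart. What part these cells had in the class II values of hepatocytes was not tested.

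In whole liver the comparison asked the same of the organ with all its cells. With limma, 17 of 28 tested members were higher in Cdk1 Liv-/- liver, 7 of the 10 of class II and its partners and 10 of the 17 of class I, and 1, H2-Ke6, was lower. Over all tested genes 38.0% were higher and 7.54% lower. That large background goes with a shift of the whole distribution, since all tested genes had a median log2 fold change of 0.18. Dividing by median-ratio size factors moved that median by -0.17, to 0.01. The median over the 10 class II members was 1.01 and lay 0.83 above that of all genes, and the median over the 17 class I members was 0.41 and lay 0.23 above it. With size factors 3107 genes were higher and 2844 lower, in place of 6610 and 1310. Then 12 members were higher and 1 lower, beside 17.9% and 16.4% of all tested genes, and the median of class II lay 0.82 and that of class I 0.20 above the median of all genes. The signs of H2-T23 and H2-K2 turned with size factors. The lowest member count on leaving out 1 library was 12 higher, without liver WT replicate 1, beside 4508 of all tested genes, and the highest 16, without WT replicate 2 or Cdk1 Liv-/- replicate 3, beside 5397 and 5480.

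H2-Aa stood at 27.6, 34.8 and 23.8 FPKM in WT liver and at 54.8, 94.2 and 47.0 in Cdk1 Liv-/- liver. The mean was 2.27-fold higher and the groups did not overlap (28.8 ± 5.59 and 65.3 ± 25.3 FPKM, SD, n = 3; limma log2 fold change 1.12 ± 0.28 SE, adjusted p = 0.0298). H2-Ab1 stood at 19.8, 23.5 and 14.4 FPKM in WT and at 41.0, 60.8 and 29.9 in Cdk1 Liv-/-. H2-Eb1 stood at 19.3, 22.7 and 13.01 FPKM in WT and at 34.3, 55.4 and 29.6 in Cdk1 Liv-/-. Both rose without overlap, by log2 fold changes of 1.14 ± 0.30 and 1.08 ± 0.30 (SE, limma adjusted p = 0.0324 and 0.0375). Cd74 stood at 56.8, 74.6 and 43.4 FPKM in WT and at 118, 187 and 95.8 in Cdk1 Liv-/- (limma log2 fold change 1.17 ± 0.30 SE, adjusted p = 0.0313). With size factors and without Cdk1 Liv-/- replicate 1 together, Cd74, H2-Ab1 and H2-Eb1 missed the threshold (limma adjusted p = 0.110, 0.129 and 0.121), and over 18 alternatives the limma adjusted p of H2-Aa reached 0.0953. In all 4 genes, liver Cdk1 Liv-/- replicate 2 was the highest library and replicate 3 the lowest of its group. Within WT, replicate 2 was the highest and replicate 3 the lowest.

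Of the peptide exchange factors and their inhibitors, 3 of 5 rose, beside 38.0% of all tested genes. H2-DMa went from a mean of 5.39 ± 0.67 to 9.37 ± 2.32 FPKM (SD, n = 3; limma log2 fold change 0.72 ± 0.20 SE, adjusted p = 0.0382), a call lost without liver WT replicate 3 and with size factors. H2-DMb1 went from 4.69 ± 1.13 to 10.9 ± 2.83 FPKM (SD, n = 3; limma log2 fold change 1.13 ± 0.24 SE, adjusted p = 0.0192). H2-Oa, part of the H2-O molecule that restrains H2-DM, rose from 0.31 to 0.64 FPKM (limma adjusted p = 0.0219). Its partner H2-Ob had means of 0.98 FPKM in WT livers and 0.84 FPKM in Cdk1 Liv-/- livers (limma adjusted p = 0.493), and it was lower without liver Cdk1 Liv-/- replicate 2. H2-DMb2 had means of 0.71 and 1.12 FPKM and did not pass (limma adjusted p = 0.197). Ciita stood at 0.24, 0.22 and 0.26 FPKM in WT and at 2.18, 0.74 and 0.35 in Cdk1 Liv-/- liver. All Cdk1 Liv-/- libraries lay above WT and differed among themselves, and the test was not passed (limma log2 fold change 0.93 ± 0.41 SE, adjusted p = 0.126). The order of the Cdk1 Liv-/- libraries was not that of Cd74: replicate 1 had the most Ciita and replicate 2 the most Cd74. Without replicate 3 its log2 fold change was 1.30 and it passed (limma adjusted p = 0.0540), and without replicate 1 the log2 fold change was 0.47 (limma adjusted p = 0.103). Over 17 alternatives the limma adjusted p of Ciita ranged from 0.0502 to 0.244. In reads, the FPKM of Ciita stand for about 55 to 67 in the WT livers and 617 in Cdk1 Liv-/- replicate 1 over its longest coding transcript, and for 6 to 7 and 63 over its shortest.

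**Figure D2:**
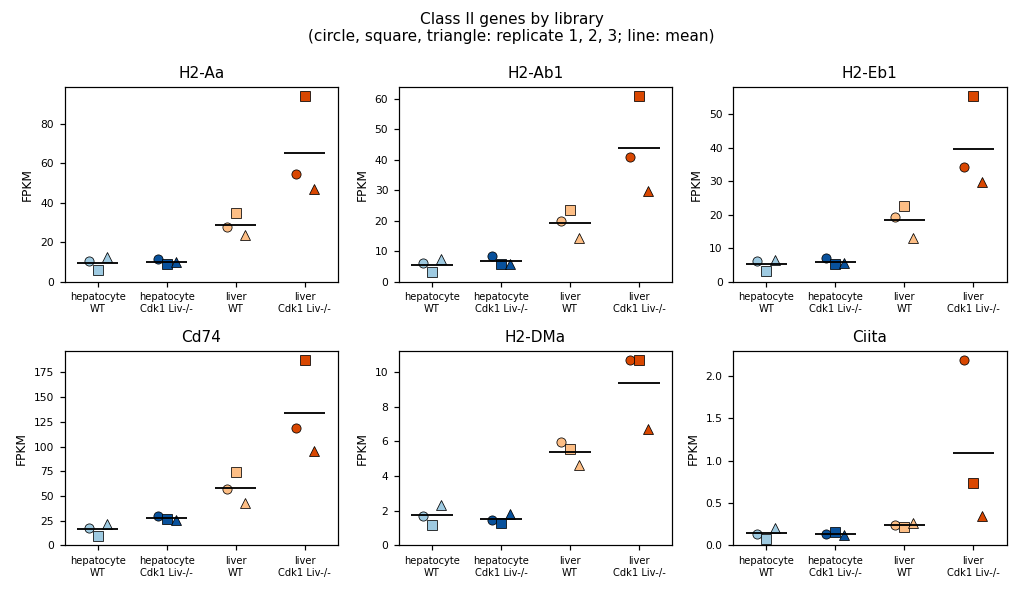
FPKM (vertical axes, from 0) of H2-Aa, H2-Ab1, H2-Eb1, Cd74, H2-DMa and Ciita in each of the 12 libraries, with replicates 1, 2 and 3 as circles, squares and triangles and group means of 3 libraries as lines. In the class II chains and Cd74 the highest Cdk1 Liv-/- liver library is replicate 2, with 187 FPKM of Cd74, whereas in Ciita it is replicate 1, with 2.18 FPKM.

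Of the class I members, H2-Q7, H2-Q6 and H2-Q4 had the largest log2 fold changes in whole liver, while H2-Q1 and H2-Q2 had negative ones, -0.45 and -0.23, without passing (limma adjusted p = 0.538 and 0.730). H2-Q7 stood at 26.6, 27.4 and 13.2 FPKM in WT and at 47.1, 63.9 and 46.7 in Cdk1 Liv-/- liver (limma log2 fold change 1.27 ± 0.30 SE, adjusted p = 0.0258). H2-Q6 stood at 12.4, 13.7 and 6.87 FPKM in WT and at 25.9, 27.8 and 21.8 in Cdk1 Liv-/- (limma log2 fold change 1.21 ± 0.26 SE, adjusted p = 0.0190). Neither overlapped between genotypes. With size factors and without Cdk1 Liv-/- replicate 3 together, H2-Q7 narrowly missed the threshold (limma adjusted p = 0.102), the highest of 18 alternatives. H2-Q4 rose from 33.0, 36.7 and 24.4 FPKM to 71.8, 60.3 and 49.4 (limma log2 fold change 0.94 ± 0.19 SE, adjusted p = 0.0172), and H2-Q5 from 11.2, 13.2 and 5.15 FPKM to 17.7, 18.6 and 15.7 (limma adjusted p = 0.0902). WT replicate 3 was the lowest liver library for all 4 genes. The call of H2-Q5 was lost when liver WT replicate 1 or any 1 Cdk1 Liv-/- library was left out, and under 9 of 18 alternatives in all, with limma adjusted p from 0.0413 to 0.305.

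H2-K1 stood at 391, 429 and 261 FPKM in WT and at 492, 575 and 453 in Cdk1 Liv-/- liver (limma log2 fold change 0.52 ± 0.20 SE, adjusted p = 0.0998). H2-D1 stood at 237, 257 and 178 FPKM in WT and at 336, 439 and 312 in Cdk1 Liv-/- (limma log2 fold change 0.69 ± 0.19 SE, adjusted p = 0.0352). B2m rose from 1192, 1331 and 1022 FPKM to 1549, 1659 and 1490 (limma log2 fold change 0.41 ± 0.12 SE, adjusted p = 0.0406). None of these 3 overlapped between genotypes. With size factors H2-K1 and B2m no longer passed (limma adjusted p = 0.308 and 0.232). H2-K1 also missed the threshold when liver WT replicate 1 or 3 or any 1 Cdk1 Liv-/- library was left out, and B2m without liver WT replicate 1. H2-D1 missed it with size factors and without Cdk1 Liv-/- replicate 1 or 3 (limma adjusted p = 0.151 and 0.109), and H2-T22 with size factors and without replicate 1 (0.120). Over 18 alternatives the limma adjusted p ranged from 0.0576 to 0.404 for H2-K1 and from 0.0150 to 0.346 for B2m. H2-T22 rose from 58.9, 63.4 and 47.6 FPKM to 90.6, 95.5 and 77.9 (limma adjusted p = 0.0164), and H2-T10 from a mean of 1.19 to 2.27 FPKM (limma adjusted p = 0.0416), a call lost without liver WT replicate 1 or 3. H2-K2, H2-M3, H2-Q2, H2-T24 and H2-Bl did not pass, with log2 fold changes between -0.23 and 0.39 (limma adjusted p between 0.216 and 0.850). H2-M3 was higher without liver Cdk1 Liv-/- replicate 3.

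H2-Q10 stood at 529, 513 and 388 FPKM in WT and at 631, 545 and 661 in Cdk1 Liv-/- liver. It passed narrowly (limma adjusted p = 0.0973), and with size factors its limma adjusted p was 0.4996, in a range of 0.0690 to 0.755 over 18 alternatives. The call was lost when any 1 WT liver library, or Cdk1 Liv-/- replicate 1 or 3, was left out. H2-T23 stood at 223, 240 and 188 FPKM in WT and at 264, 237 and 219 in Cdk1 Liv-/-, with overlap (limma log2 fold change 0.15 ± 0.12 SE, adjusted p = 0.346). Its log2 fold change was -0.07 with size factors and lay between -0.15 and 0.23 over 18 alternatives. H2-Q1 stood at 15.6, 15.8 and 8.08 FPKM in WT and at 14.95, 3.90 and 12.4 in Cdk1 Liv-/- (limma adjusted p = 0.538), and without Cdk1 Liv-/- replicate 2 its log2 fold change was 0.11. H2-Ke6 stood at 53.6, 52.9 and 50.8 FPKM in WT and at 48.0, 41.3 and 48.4 in Cdk1 Liv-/- (limma log2 fold change -0.19 ± 0.07 SE, adjusted p = 0.0927). That call was lost under 11 of 18 alternatives, among them leaving out any WT library or Cdk1 Liv-/- replicate 2 or 3 (limma adjusted p from 0.0206 to 0.227). With the added requirement of a log2 fold change of at least 1, 7 members were higher and 0 lower, beside 4.59% and 1.00% of all tested genes. They were H2-Q7, H2-Q6, Cd74, H2-Ab1, H2-DMb1, H2-Aa and H2-Eb1.

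**Figure D3:**
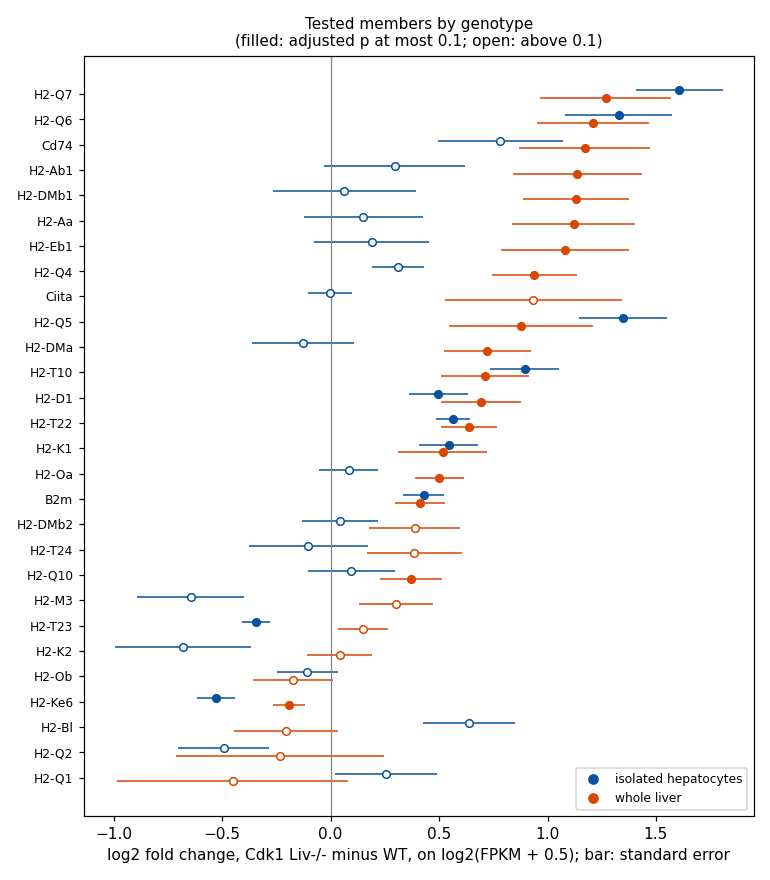
Log2 fold change of Cdk1 Liv-/- minus WT (horizontal axis, on log2(FPKM + 0.5)) for the 28 tested members, in isolated hepatocytes (blue) and whole liver (orange), with bars for the standard error and filled points for an adjusted p of at most 0.1 (limma, n = 3 a group). The class II chains lie between 1.08 and 1.14 in whole liver and between 0.15 and 0.30 in hepatocytes, whereas H2-Q7 lies at 1.27 and 1.61.

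Without liver Cdk1 Liv-/- replicate 1, 14 members were higher in whole liver, and without replicate 3, 16, beside 35.6% and 31.5% of all tested genes. With size factors and without replicate 1 together, 5 members were higher, beside 16.5% of all tested genes, a combination chosen after seeing the data, while 12 were higher with size factors and without replicate 3, beside 13.9%. Markers of myeloid cells are given beside these counts, with 38.0% of all tested genes higher in whole liver. The 6 monocyte markers, led by Lyz2, summed to 46.0, 49.2 and 62.8 FPKM in WT liver and to 107, 179 and 123 FPKM in Cdk1 Liv-/- liver, and 5 were higher. The 11 Kupffer cell and macrophage markers summed to 539, 593 and 600.1 FPKM in WT and to 688, 945 and 716 FPKM in Cdk1 Liv-/-, and 4 were higher, about the share of all genes, or 2 without WT replicate 1 or 2. The 8 dendritic cell markers summed to 5.55, 6.52 and 6.15 FPKM in WT and to 9.52, 12.2 and 10.7 FPKM in Cdk1 Liv-/-, and 5 were higher. The 7 neutrophil markers, led by S100a9, summed to 67.9, 41.5 and 64.7 FPKM in WT and to 80.6, 290.2 and 235 FPKM in Cdk1 Liv-/-, and 4 were higher. The neutrophil count changed with single libraries: it was 7 without Cdk1 Liv-/- replicate 1, 2 without WT replicate 3, 0 without WT replicate 2 and 1 without any of the other 3. With size factors 5 monocyte, 2 Kupffer cell and macrophage, 5 dendritic cell and 3 neutrophil markers were higher, beside 17.9% of all tested genes.

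Of the lymphocyte markers 1 was higher in whole liver. The 7 B cell markers summed to 27.9, 26.3 and 32.8 FPKM in WT and to 16.1, 30.5 and 26.4 FPKM in Cdk1 Liv-/- liver, with 1 higher, Cr2, and 1 lower, Cd79a. Without liver Cdk1 Liv-/- replicate 2, 3 were lower, and leaving out any 1 of the other 5 libraries lost the call of Cd79a. The 9 T and NK cell markers, led by Gzma, summed to 11.1, 16.7 and 9.39 FPKM in WT and to 7.02, 10.6 and 7.13 FPKM in Cdk1 Liv-/-, with 0 higher and 1, Gzma, lower by limma and the same counts at an unadjusted p under 0.05. The 7 stellate cell and fibroblast markers, led by Col3a1, summed to between 403 and 453 FPKM in WT and to between 746 and 974 FPKM in Cdk1 Liv-/-, and 5 were higher. The 7 sinusoidal endothelial markers summed to between 116 and 160.2 FPKM in WT and to between 144 and 181 FPKM in Cdk1 Liv-/-, and 1, Clec4g, was higher, a call lost without WT replicate 1 or Cdk1 Liv-/- replicate 1 or 3. The 5 cholangiocyte markers summed to 59.4, 62.2 and 45.8 FPKM in WT and to 270.2, 139 and 259 FPKM in Cdk1 Liv-/-, and 4 were higher, or 2 without WT replicate 1 or 3 or Cdk1 Liv-/- replicate 1 or 3. The 7 erythroid markers summed to 1103, 1229 and 2170 FPKM in WT and to 1165, 1768 and 1456 FPKM in Cdk1 Liv-/-, with 2 lower, Hbb-bt and Alas2, or 1 without Cdk1 Liv-/- replicate 1 or 3. Of the 8 hepatocyte markers 5 were lower, Apoa1, Ttr, Cps1, Serpina1c and Ass1. The part of these cells in the rise of class II was not tested.

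**Figure D4:**
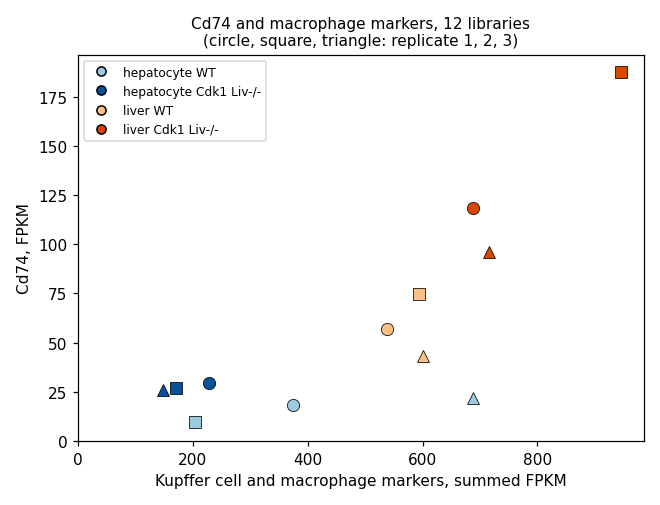
Cd74 (vertical axis, FPKM) against the summed FPKM of 11 Kupffer cell and macrophage markers (horizontal axis) in the 12 libraries, with replicates 1, 2 and 3 as circles, squares and triangles. The Cdk1 Liv-/- hepatocytes lie at 149 to 228 FPKM of the markers and 26.1 to 29.4 FPKM of Cd74, while WT hepatocyte replicate 3 lies at 689 FPKM of the markers and 22.03 FPKM of Cd74.

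Class I is fed with peptides by 13 genes for peptide loading and the proteasome. In hepatocytes 2 of them were higher and 0 lower, beside 12.1% and 6.61% of all tested genes, with a median log2 fold change of 0.10. The 2 were Psmb8, a subunit of the immunoproteasome, which rose from 25.8, 22.7 and 20.6 FPKM to 33.4, 33.4 and 32.2 (limma log2 fold change 0.52, adjusted p = 0.0252), and the chaperone Canx (0.31, limma adjusted p = 0.0863), whose call was lost when any 1 of the 6 libraries was left out. Tapbpl was next with 0.36 (limma adjusted p = 0.102), and Psmb10 and Psme2 had the smallest log2 fold changes, -0.25 and -0.19. Tap1, a subunit of the peptide transporter, stood at 11.2, 8.77 and 9.31 FPKM in WT and at 9.67, 9.71 and 9.11 in Cdk1 Liv-/- hepatocytes (limma adjusted p = 0.894). In whole liver 0 of the 13 passed with limma in either direction, and 0 had an unadjusted p under 0.05. Tap1 and Tap2 had the largest log2 fold changes there, 0.70 and 0.68, and Erap1 and Psme2 the smallest, -0.29 and -0.10. The median was 0.13, below the 0.18 of all tested genes. With size factors 1 was higher and 1 lower in hepatocytes and 2 were lower in whole liver, beside 9.83%, 8.13% and 16.4% of all tested genes.

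Liver Cdk1 Liv-/- replicate 1 differed sharply from its group in these genes. Tap1 stood at 74.2, 19.0 and 16.8 FPKM in the 3 Cdk1 Liv-/- livers and at 17.3, 22.1 and 14.2 in WT. Psmb8 stood at 81.1, 49.3 and 47.6 FPKM in Cdk1 Liv-/- and at 63.0, 58.3 and 26.6 in WT. Nlrc5, the transactivator of class I genes, stood at 22.97, 6.89 and 8.28 FPKM in Cdk1 Liv-/- and at 9.29, 8.94 and 6.73 in WT. In replicates 2 and 3 all 3 genes lay within the range of the WT livers. The classical chains and B2m did not share this pattern, since replicate 2, not replicate 1, held the most H2-K1, H2-D1 and B2m. Replicate 1 did hold the most H2-T23, H2-Q4, H2-M3 and H2-T24 of the 12 libraries, with 264, 71.8, 4.28 and 2.77 FPKM. Without replicate 1, the limma log2 fold changes of Tap1 and Nlrc5 were 0.02 and -0.12. The plot of these genes also shows Irf1, Psmb9 and Cd274, which were chosen after their values were seen.

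**Figure D5:**
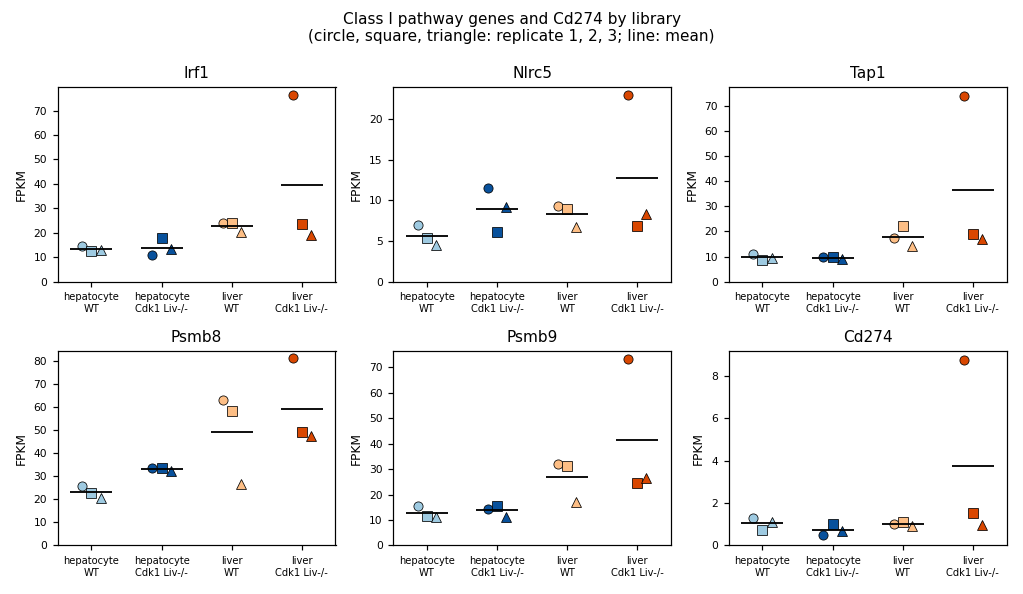
FPKM (vertical axes, from 0) of Irf1, Nlrc5, Tap1, Psmb8, Psmb9 and Cd274 in each of the 12 libraries, with replicates 1, 2 and 3 as circles, squares and triangles and group means of 3 libraries as lines. In each panel the highest point is liver Cdk1 Liv-/- replicate 1, with 76.2 FPKM of Irf1 and 74.2 FPKM of Tap1.

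Of 8 tested genes for class I transcription and interferon gamma signalling, 0 passed with limma in hepatocytes, where 0 were higher and 2 lower at an unadjusted p under 0.05. Nlrc5 and Irf2 had the largest log2 fold changes there, 0.61 and 0.39, and Socs1 and Ifngr1 the smallest, -0.47 and -0.30. In whole liver 5 were higher and 0 lower, beside 38.0% and 7.54% of all tested genes, with a median of 0.50 against 0.18. The 5 were both receptor chains, Ifngr1 and Ifngr2, the kinases Jak1 and Jak2, and the feedback inhibitor Socs1. Ifngr2 stood at 9.19, 10.5 and 11.7 FPKM in WT and at 17.4, 20.6 and 18.1 in Cdk1 Liv-/- liver (limma log2 fold change 0.82, adjusted p = 0.00491), without overlap. Socs1 had a log2 fold change of 0.66, and Irf2 and Jak2 the smallest, 0.17 and 0.39. The ligand Ifng did not exceed 0.13 FPKM in any library and was not tested. With size factors 1 of the 8 was higher in whole liver and 1 lower in hepatocytes, beside 17.9% and 8.13% of all tested genes. Without liver WT replicate 1, 1 was higher, beside 25.9%, and without any other liver library 4 or 5 were, beside 29.7% to 35.6%. Without hepatocyte Cdk1 Liv-/- replicate 2, 2 were higher in hepatocytes, beside 9.33%.

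Of 8 genes that process antigen for class II, 5 were higher and 0 lower in whole liver, beside 38.0% and 7.54% of all tested genes, with a median log2 fold change of 0.50 against 0.18. Ctss, the protease that trims the invariant chain, rose from 44.9, 52.0 and 44.6 FPKM to 69.0, 93.9 and 66.8 (limma log2 fold change 0.68, adjusted p = 0.0192), and Lgmn, an endosomal protease, had the largest change, 1.06 (limma adjusted p = 0.0133). Ctsd, Ifi30 and Ctsb were the other higher genes, and March8 and Ctsl had the smallest log2 fold changes, -0.11 and 0.14. With size factors 3 were higher and 1 lower, beside 17.9% and 16.4% of all tested genes. Without liver WT replicate 1 or 3 also 3 were higher, beside 25.9% and 29.7%. In hepatocytes 0 of 8 passed with limma, and 1 was higher and 0 lower at an unadjusted p under 0.05. There Ctsd and Ctsl had the largest log2 fold changes, 0.42 and 0.33, and Ifi30 and Ctss the smallest, -0.58 and -0.55.

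Of 7 factors that bind class II promoters, Nfyb, a subunit of the NF-Y complex that binds the Y box, was lower in hepatocytes, at 27.1, 25.4 and 23.4 FPKM in WT and at 13.5, 16.8 and 14.5 in Cdk1 Liv-/- (limma log2 fold change -0.75, adjusted p = 0.0114). The other 6 did not pass there, beside 12.1% of all tested genes higher and 6.61% lower. Rfx5, which binds the X box, and Nfya had the largest log2 fold changes, 0.25 and 0.23, and Rfxank was next to Nfyb at the low end with -0.11. In whole liver Rfx5 and Nfya were higher, with log2 fold changes of 0.49 and 0.40 (limma adjusted p = 0.0627 and 0.0189), and Nfyb and Rfxank lower, with -0.37 and -0.19 (limma adjusted p = 0.0585 and 0.0924), beside 38.0% of all tested genes higher and 7.54% lower. With size factors 3 were lower, beside 16.4% of all tested genes, and Nfya and Rfx5 no longer passed. Leaving out 1 liver library at a time left 1 or 2 of the 7 higher and 0 or 1 lower, beside 25.9% to 35.6% and 4.94% to 7.45%.

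Among 6 class I-like genes outside the H2- names, 0 passed with limma in hepatocytes, where 0 were higher and 1 lower at an unadjusted p under 0.05. Cd1d2 and Azgp1 had the largest log2 fold changes, 0.13 and 0.08, and Fcgrt, the receptor that protects IgG and albumin, and Cd1d1 the smallest, -0.47 and -0.14. In whole liver Hfe, Mr1 and Cd1d2 were higher, with 0.49, 0.44 and 0.24, beside 38.0% of all tested genes, and Azgp1 and Fcgrt stood lowest, both at -0.03. With size factors 2 were lower, beside 16.4% of all tested genes, and those 3 no longer passed. Without liver WT replicate 1 they missed the threshold as well, and without WT replicate 3, 1 was higher. Of 5 tested costimulation genes, Icosl, the ligand of ICOS on T cells, rose in hepatocytes from 0.76, 0.69 and 0.70 FPKM to 6.37, 3.62 and 5.47 (limma log2 fold change 2.18, adjusted p = 0.00373). Cd40, the receptor through which T cells activate antigen-presenting cells, also rose there (0.87, limma adjusted p = 0.0739), a call lost without any 1 of 5 libraries, hepatocyte WT replicate 3 being the exception. Beside these calls, 12.1% of all tested genes were higher in hepatocytes and 6.61% lower. Cd86 and Cd80 had the smallest log2 fold changes, -0.97 and -0.37, without passing. In whole liver Cd40, Icosl and Cd86 were higher, with 1.60, 1.36 and 0.58, again beside 38.0%, and Cd80 had the smallest change, 0.30. With size factors 2 were higher in whole liver, beside 17.9% of all tested genes, and in hepatocytes 2 were higher and 1 lower, beside 9.83% and 8.13%.

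Isolated hepatocytes were also compared with whole liver within each genotype. In WT mice, every hepatocyte library lay below every liver library for H2-Aa, H2-Ab1, H2-Eb1 and Cd74. Ciita and H2-Oa separated barely, at no more than 0.21 FPKM in hepatocytes and at least 0.22 and 0.23 in liver. How many of all tested genes separated in this way was not counted. H2-Aa had a mean of 9.42 ± 3.35 FPKM in hepatocytes and 28.8 ± 5.59 in liver, and Cd74 16.6 ± 6.33 and 58.2 ± 15.6 (SD, n = 3). The log2 fold changes, hepatocyte minus liver, were -1.61 ± 0.29 and -1.82 ± 0.34 (SE, limma adjusted p = 0.0942 and 0.102). By limma 4 members of the 28 were lower, H2-Aa, H2-Eb1, H2-DMa and H2-Ob, and 0 higher, beside 1.42% and 0.104% of all tested genes. At an unadjusted p under 0.05, 15 were lower and 0 higher, beside 2791 and 481 of all 17385 tested genes. The median log2 fold change was -1.42 over class II, -0.41 over class I and -0.10 over all tested genes, and size factors moved that of all genes by 0.097. With size factors 1 member was lower, beside 0.391% of all tested genes. Without hepatocyte WT replicate 3, 10 members were lower, beside 15.3% of all tested genes, and leaving out any other library of these groups left 0, beside at most 0.328%. The signs of H2-Q10 and H2-Ke6 turned with size factors.

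In Cdk1 Liv-/- mice the same comparison gave more calls, for members as for all genes. By limma 18 of 28 tested members were lower in hepatocytes than in liver and 0 higher, beside 35.9% and 8.86% of all tested genes. All 10 tested members of class II and its partners were among them, with a median log2 fold change of -2.24 against -0.19 over all genes. H2-Aa had a mean of 10.1 ± 1.40 FPKM in hepatocytes and 65.3 ± 25.3 in liver, and Cd74 27.4 ± 1.72 and 133.9 ± 47.7 (SD, n = 3), with log2 fold changes of -2.58 ± 0.26 and -2.21 ± 0.24 (SE, limma adjusted p = 0.00144 and 0.00167). Ciita, also lower, lost its call when any 1 Cdk1 Liv-/- hepatocyte library or liver Cdk1 Liv-/- replicate 2 was left out. Of the 17 class I members 7 were lower. H2-Q7 and H2-Q5 were not, with log2 fold changes of -0.08 and -0.02 (limma adjusted p = 0.752 and 0.928), and their signs turned with size factors, as did those of B2m and H2-T10. H2-T23 was lower, with -0.83 ± 0.09 (SE, limma adjusted p = 0.00184). Size factors moved the median of all genes by 0.21 and the split of all genes from 1540 higher and 6235 lower to 3502 and 3710. Then 13 members were lower, all 10 of class II and 3 of class I, and the median of class II lay -2.00 from that of all genes, against -2.05 without them.

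Markers of other cells were compared between compartments in the same way. All 11 Kupffer cell and macrophage markers, 7 of 8 dendritic cell markers, 6 of 7 B cell markers and 7 of 7 sinusoidal endothelial markers were lower in Cdk1 Liv-/- hepatocytes than in Cdk1 Liv-/- liver, beside 35.9% of all tested genes. At an unadjusted p under 0.05, so were all 6 monocyte, 9 T and NK cell, 7 neutrophil and 7 stellate cell and fibroblast markers. All 5 cholangiocyte and 7 erythroid markers were lower at that limit too, beside 6393 of all 17385 tested genes. Of the 8 hepatocyte markers 4 were higher and 1 lower. In WT, by limma, 0, 0, 2 and 0 of the 4 lists named first were lower, and at an unadjusted p under 0.05 the counts were 0, 1, 6 and 0. Of all 17385 tested genes 1.42% were lower by limma, and 2791 genes at an unadjusted p under 0.05. Among the other lists 3 of 5 cholangiocyte, 2 of 9 T and NK cell, 1 of 6 monocyte and 1 of 7 erythroid markers were lower in WT by limma, and 5, 8, 2 and 5 at an unadjusted p under 0.05. For the neutrophil and the stellate cell and fibroblast markers 0 were lower by limma, and 3 and 3 unadjusted. The medians of the erythroid, cholangiocyte, neutrophil and stellate cell markers were -2.87, -1.17, -1.11 and -0.97. For the 4 lists named first the median log2 fold changes in WT were -0.66, -0.21, -1.22 and -0.03, against -0.10 over all tested genes and -1.42 over class II. These rest on single libraries. When hepatocyte WT replicate 3 was left out, the counts by limma were 6, 0, 5 and 1, beside 15.3% of all tested genes, and the medians -1.09, -0.29, -1.35 and -0.50, with -1.69 over class II. In that setting 4 cholangiocyte, 7 T and NK cell, 3 monocyte, 5 erythroid, 5 neutrophil and 6 stellate cell markers were lower. The medians without hepatocyte WT replicate 2 were -0.24, -0.09, -1.08 and 0.25. Leaving out any library of these groups other than hepatocyte WT replicate 3 lost both B cell calls and those of the T and NK cell, monocyte and erythroid lists, and the cholangiocyte calls except for 2 without liver WT replicate 3. What part these cells had in the class II values of either genotype was not tested.

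The difference between compartments in the effect of genotype was tested directly. Of 28 members, H2-T23 alone passed by limma, and 0 were higher, beside 2.35% of all tested genes higher and 7.49% lower. The effect of genotype on H2-T23 was lower in hepatocytes than in liver by 0.50 on the log2 scale (limma -0.50 ± 0.14 SE, adjusted p = 0.0734). With size factors that call was lost, and leaving out any 1 of 8 of the 12 libraries lost it as well. These were hepatocyte WT replicates 1 and 3, hepatocyte Cdk1 Liv-/- replicates 1 and 3, liver WT replicates 1 and 3 and liver Cdk1 Liv-/- replicates 1 and 2. Over 22 alternatives its log2 difference lay between -0.57 and -0.35 and its limma adjusted p between 0.0559 and 0.177. For the class II chains the differences were -0.97 ± 0.42 for H2-Aa, -0.84 ± 0.46 for H2-Ab1 and -0.89 ± 0.41 for H2-Eb1, and none passed (SE, limma adjusted p = 0.187, 0.300 and 0.223). For Cd74 the difference was -0.39 ± 0.44 and for H2-Q7 0.34 ± 0.38 (SE, limma adjusted p = 0.640 and 0.638). At an unadjusted p under 0.05, 1 member was higher and 7 lower, beside 995 and 3112 of all 17385 tested genes. Without hepatocyte WT replicate 2, 7 members were lower, among them H2-Aa, H2-Ab1 and H2-Eb1 (limma adjusted p = 0.0564, 0.0949 and 0.0823), beside 12.8% of all tested genes. Over 22 alternatives the limma adjusted p of these 3 reached 0.350, 0.551 and 0.418. Without liver Cdk1 Liv-/- replicate 3, 4 members were lower, beside 3.01%, and without hepatocyte Cdk1 Liv-/- replicate 2, H2-Bl was higher.

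The median of the difference was -0.85 over the 10 class II members and -0.11 over all tested genes, so that class II lay -0.74 from all genes. Size factors moved the median of all genes by 0.12 and the split of all genes from 409 higher and 1303 lower to 548 and 492, with class II then at -0.71 from all genes. The sign of H2-T22 turned with size factors, and that of B2m when every library was scaled to the same sum. Of the marker lists, 4 of 11 Kupffer cell and macrophage markers, 3 of 8 dendritic cell markers, 4 of 6 monocyte markers and 5 of 7 sinusoidal endothelial markers were lower in this test, beside 7.49% of all tested genes. These counts were 11, 5, 4 and 7 without hepatocyte WT replicate 2, beside 12.8%, and leaving out any other library left at most 1, 5, 5 and 3. At an unadjusted p under 0.05, 6 of 7 stellate cell, 5 of 7 neutrophil and 3 of 9 T and NK cell markers were lower. The same count was 0 for the B cell, cholangiocyte and erythroid markers. Of the 8 hepatocyte markers 4 were higher and 1 lower at that limit, beside 995 and 3112 of all 17385 tested genes. With all 12 libraries, the changes of class II in hepatocytes and in whole liver were not shown to differ at the threshold used.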

How the data were processed

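RNA was sequenced from isolated hepatocytes and whole liver of 14-day-old WT and Cdk1 Liv-/- mice, with 3 libraries in each of 4 groups. The authors aligned reads with STAR to mm10, and the deposited values are FPKM per gene from RSEM 1.2.31. The steps between low values put the depth at 34.9 to 49.9 M reads a library, which limits the precision of genes listed with few reads. Of 47069 genes, 46574 were found in GENCODE M21.

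In R 4.3.3, limma 3.58.1 was fitted to log2(FPKM + 0.5) of the 17385 genes with a mean of at least 0.1 FPKM, with a trend of the spread with level. P values were adjusted by Benjamini and Hochberg over these genes, and an adjusted p of at most 0.1 was a call. Genotypes were compared within each compartment, compartments within each genotype, and the genotype effects between compartments by an interaction over all 12 libraries.

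The alternatives were other pseudocounts (0.1 and 1), filters (none, or a mean of at least 1) and scalings (median-ratio size factors, the same sum), other models of the spread, a replicate block, a fold limit and leaving out each library. Combinations of size factors or of omitted libraries were chosen after seeing the data. The members and the gene lists were chosen with earlier results of these data known. From 2 of the lists, 1 gene each is not reported here and enters no count or sum. Per-library values are given for members with a mean of at least 5 FPKM and for Ciita, and the other members by range or by name where they passed. From each pathway list, Tap1, Psmb8, Nlrc5, Ctss and Rfx5 are named with the 2 largest and 2 smallest log2 fold changes in each genotype comparison. Other genes, such as Adgre1, Cr2, Zbtb46, the other markers named from small counts, and those behind the ratios, were chosen after their values were seen. Replicates of equal number were treated as unpaired, since no source pairs them. For the omission of 1 library, the spread of the pair left is pooled over genes by limma. Ifng, Pdcd1lg2 and 16 members under the filter were left out of the tests.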

Additional observations from a re-analysis of the deposited data

Results flagged for a closer look

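H2-T23 is set apart because the effect of genotype on it differed between the compartments in a direct test. The log2 fold change of Cdk1 Liv-/- against WT was -0.34 in hepatocytes and 0.15 in whole liver, and the difference was -0.50 (limma, adjusted p = 0.0734). All 3 Cdk1 Liv-/- hepatocyte libraries lay below all 3 WT hepatocyte libraries, while the liver groups overlapped. The highest library, at 264 FPKM, was liver Cdk1 Liv-/- replicate 1, which also stood apart in Tap1. Over 22 alternatives the difference lay between -0.57 and -0.35 and the limma adjusted p between 0.0559 and 0.177, with 13 of them above 0.1. The sign in whole liver turned with median-ratio size factors, and the sign of the difference did not turn under any of the 22. The cause of the difference was not tested.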

How the results depend on the processing

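The 5 comparisons took 97 fits in all, alternatives included. None of the 17 members given by library, Ciita among them, reversed its direction where it was called. In hepatocytes the 8 higher members numbered 5 to 8 on leaving out 1 library and 3 with a log2 fold change of at least 1, and the 2 lower ones 2 to 3 and 0. Of all tested genes 6.66% to 9.33% were higher on leaving out 1 library and 4.20% with the fold limit. The lower shares were 2.31% to 7.04% and 2.17%. In whole liver the 17 higher members numbered 12 to 16 on leaving out 1 library, 7 with the fold limit and 5 with size factors and without Cdk1 Liv-/- replicate 1. The shares of all tested genes higher there were 25.9% to 35.6%, 4.59% and 16.5%. The 1 lower member of whole liver numbered 0 to 1 on leaving out 1 library, and 0 with the same sum, without the trend, without moderation, with all 12 libraries in the fit and with the fold limit. In the same order, 4.94% to 7.45%, 6.79%, 7.39%, 6.03%, 5.55% and 1.00% of all tested genes were lower. All 12 libraries in the fit gave 4 lower members in hepatocytes, beside 11.9% of all tested genes.

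Between the WT compartments the 4 lower members numbered 0 to 10 on leaving out 1 library, beside 0 to 15.3% of all tested genes. They numbered 2 with a pseudocount of 0.1, without a filter, with the same sum and without the trend, beside 1.3%, 1.1%, 0.633% and 0.984% of all tested genes. They numbered 1 with a mean of at least 1 FPKM and with size factors, beside 0.66% and 0.391%. The members numbered 0 without moderation, 9 with all 12 libraries in the fit and 10 with size factors and without hepatocyte WT replicate 3. In those fits 0.132%, 2.71% and 9.57% of all tested genes were lower, against 1.42% in the main fit. Between the Cdk1 Liv-/- compartments the 18 lower members numbered 16 to 18 on leaving out 1 library, beside 27.9% to 33.9% of all tested genes, and 10 with the fold limit. The 0 higher ones, by limma and at an unadjusted p under 0.05, numbered 0 to 1 on leaving out 1 library, 1 with all 12 libraries in the fit and 1 with size factors and without liver Cdk1 Liv-/- replicate 1. The shares of all tested genes higher in these fits were 4.95% to 10.7%, 11.1% and 13.7%.

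In the interaction the 1 lower member numbered 0 to 7 on leaving out 1 library, 2 with a mean of at least 1 FPKM and 3 with the same sum. Beside these, 0.247% to 12.8%, 9.09% and 8.36% of all tested genes were lower. The lower member numbered 0 without a filter, with size factors and without moderation, beside 2.42%, 2.83% and 4.01%. It also numbered 0 with the fold limit, and with liver Cdk1 Liv-/- replicate 1 and hepatocyte WT replicate 3 both left out, the latter beside 2.86%. The 0 higher members, by limma, numbered 0 to 1 on leaving out 1 library, beside 0.201% to 2.81% of all tested genes. At an unadjusted p under 0.05, 1 was higher, beside 995 of all 17385 tested genes.

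With the replicate number as a block, 5 members were higher and 1 lower in hepatocytes, beside 6.03% and 2.35% of all tested genes. In whole liver 0 were lower, beside 5.99%. Between the WT compartments 0 were lower, as were 0 of all tested genes, and in the interaction 0 were lower, beside 2.62%. No source pairs libraries of equal number, and their correlations lay between -0.32 and 0.24. Leaving out 1 library also lowers the number of libraries, and the causes of these changes were not tested. Combinations of size factors with an omitted library, and the omission of both libraries, were chosen after seeing the data. Depth limits the genes of low level: the FPKM of Ciita stand for about 18 to 67 reads over its longest and 2 to 7 over its shortest coding transcript in each library but the Cdk1 Liv-/- livers.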

Other observations

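Ratios between genes of the same library do not depend on how libraries are scaled. Those given here were chosen after their values were seen, so they are a description without a test. The ratio of Cd74 to the summed FPKM of H2-Aa, H2-Ab1 and H2-Eb1 was 0.811, 0.798 and 0.836 in WT hepatocytes and 1.09, 1.37 and 1.21 in Cdk1 Liv-/- hepatocytes. In whole liver the ratio was 0.850, 0.920 and 0.847 in WT and 0.910, 0.891 and 0.899 in Cdk1 Liv-/-. H2-Q7 amounted to 5.95% of H2-K1 on average in WT hepatocytes and 12.8% in Cdk1 Liv-/- hepatocytes, and to 6.09% and 10.3% in whole liver.

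The summed class II chains amounted to 5.25% of the summed Kupffer cell and macrophage markers on average in WT hepatocytes and to 12.6% in Cdk1 Liv-/- hepatocytes. In whole liver they amounted to 11.5% in WT and 18.7% in Cdk1 Liv-/-. The ratio of B2m to the sum of H2-K1 and H2-D1 was 2.06, 2.54 and 2.41 in WT and 2.04, 2.36 and 2.14 in Cdk1 Liv-/- hepatocytes. In whole liver it was 1.90, 1.94 and 2.33 in WT and 1.87, 1.64 and 1.95 in Cdk1 Liv-/-. The genotypes overlapped in both compartments. How the ratios within a cell and the mix of cells enter these values was not tested.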
